A study of Mus musculus with 16 samples.

Results

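The adult globin genes were followed in sorted bone marrow cells of leukemia-bearing mice. They were found by their symbols in a table of normalized counts from host cells (stroma) and a second table from leukemic cells (tumor). Of the 6 names looked for (Hba-a1, Hba-a2, Hbb-b1, Hbb-bs, Hbb-bt and Ahsp), 4 rows were found in each table, among 13344 rows in stroma and 15080 in tumor. The row with the symbol Hbb-b1 carries the identifier ENSMUSG00000052305.6, which the GENCODE annotation names Hbb-bs, so both names stand for a single row, called Hbb-b1 here. Ahsp, the chaperone of free alpha globin, was not analysed here.

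BCR-ABL+ Arf-/- B-ALL cells that express mCherry were injected into the tail vein of C57BL/6J mice, 500000 cells per mouse, and the marrow was collected 8 days later without treatment. The hosts were wild-type (WT) or lacked the Il6 gene (IL-6 KO), were 6 to 8 weeks old when bought and were of both sexes. After lysis of red cells, mCherry+ cells were sorted as tumor and all other live marrow cells as stroma, giving 4 libraries in each of WT stroma, IL-6 KO stroma, WT tumor and IL-6 KO tumor. Tumor cells are the same transplanted Arf-/- line in both hosts and carry no IL-6 deletion of their own, and the stroma gate holds every mCherry- cell of the marrow, nucleated red cell precursors included. Il6 itself was not analysed here, so the genotype labels could not be checked against it. The labels number the libraries without saying that a number marks one mouse, and p-values therefore measure only the spread between these libraries.

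Hemoglobin carries oxygen in red cells as a tetramer of alpha and beta globin chains, each holding a heme group. Adult mice make the alpha chain from Hba-a1 and Hba-a2 on chromosome 11 and the beta chain from a pair of beta genes on chromosome 7. The genes are switched on as erythroblasts mature in the marrow, where GATA1 and KLF1 bind their promoters and distant enhancers, and globin mRNA persists in reticulocytes after the nucleus is lost. In bulk samples such as these, fewer red cell precursors cannot be told apart from less globin mRNA per cell.

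The 2 genes of each pair are close to identical, and the sequences at the end of their coding parts are shown because they hold the only coding base at which the copies differ. In GENCODE vM21 on GRCm38, Hba-a1 lies at chr11:32283511-32284465 and Hba-a2 at chr11:32296489-32297298, both on the plus strand. Hbb-b1 (named Hbb-bs there) lies at chr7:103826534-103828096 and Hbb-bt at chr7:103812524-103813996, both on the minus strand. Each main transcript has 3 exons, and the coding sequence with its stop codon is 429 bases long in the alpha genes and 444 in the beta genes. The last 75 coding bases, in the third exon, run 5′ to 3′ as follows, with the base that differs within a pair in capitals.
Hba-a1, chr11:32284317-32284391: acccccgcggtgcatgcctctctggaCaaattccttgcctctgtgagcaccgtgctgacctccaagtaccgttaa
Hba-a2, chr11:32297134-32297208: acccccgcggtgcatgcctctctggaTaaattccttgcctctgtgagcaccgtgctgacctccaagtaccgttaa
Hbb-b1, chr7:103826665-103826739: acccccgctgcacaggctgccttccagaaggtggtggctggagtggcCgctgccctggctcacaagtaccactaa
Hbb-bt, chr7:103812656-103812730: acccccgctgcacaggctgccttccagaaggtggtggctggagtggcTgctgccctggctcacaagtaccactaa

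Counted from 1 at the A of the start codon, the substitutions are C381T from Hba-a1 to Hba-a2 and C417T from Hbb-b1 to Hbb-bt, and neither changes the encoded residue. Reads of 75 bases were sequenced, and of the 480 windows of that length in the Hba-a2 transcript, 389 (81.0%) are identical in Hba-a1, against 62.2% of the 625 windows of Hba-a1. In the beta pair, 356 windows are identical, which is 64.3% of the 554 windows of Hbb-b1 and 56.6% of the 629 windows of Hbb-bt. The main GENCODE transcript starts 161 bases before the RefSeq start in Hba-a1, 73 before it in Hbb-bt, 3 before it in Hba-a2 and at the same base in Hbb-b1, and which start the marrow mRNA uses was not tested. Counted from the RefSeq starts, 386 windows are identical in the alpha pair, 83.2% of those of Hba-a1 and 80.9% of those of Hba-a2, so the larger number of its own windows in Hba-a1 (236 as against 91) comes from the earlier start and turns to 78 as against 91. In the beta pair the shares from the RefSeq starts are 64.3% and 64.0%. No window of the 4 full transcripts occurs in an annotated transcript of any other gene. Within the coding parts alone, 306 of 355 windows are identical in the alpha pair and 342 of 370 in the beta pair. The division of reads within a pair therefore rests on the remaining windows, which cover the differing coding base or reach beyond the coding part. The value of a single copy is less certain than the sum of its pair.

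The promoter of 1 gene of each pair is shown. The stretches are the 110 bases before the RefSeq start of transcription on GRCm38.p6, a start that GENCODE places within 3 bases for these genes, whereas the same stretch lies wholly inside the GENCODE transcript of Hba-a1 and for 73 bases inside that of Hbb-bt. Capitals mark matches to ATATAA, found in core promoters, to CCAAT, and to CACCC, which KLF1 binds.
Hba-a2, chr11:32296382-32296491, plus strand: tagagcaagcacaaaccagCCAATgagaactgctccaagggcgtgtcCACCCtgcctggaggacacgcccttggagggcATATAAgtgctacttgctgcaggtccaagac
Hbb-b1, chr7:103827929-103828038, minus strand: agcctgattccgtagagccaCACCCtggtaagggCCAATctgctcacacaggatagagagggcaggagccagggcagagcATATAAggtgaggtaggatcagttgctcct

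Searched on both strands, ATATAA was found in 4.1%, CCAAT in 20.2% and CACCC in 29.6% of 32851 promoter windows of that length, and all 3 together in 0.23%. All 4 globin windows held all 3 motifs, with no match overlapping another, and ATATAA began between 28 and 31 bases before the RefSeq start. Hbb-bt had 3 matches to CCAAT (1 forward and 2 reverse) and 2 to CACCC, where each of the others had 1 of each. GATAA, a form of the GATA site, was in 9.4% of windows and in none of the globin ones, and other forms of the site were not searched. Around the start, Hba-a1 and Hba-a2 shared an identical run of 297 of 300 bases, while the longest run shared by Hbb-b1 and Hbb-bt was 14 bases.

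Marker genes separated the compartments. The 11 B lineage markers made up 0.296 to 0.388% of the summed normalized counts of tumor libraries and 0.00635 to 0.0229% of stroma libraries, with Rn7s1 and CT010467.1 left out of the sums. All 13 erythroid markers were measured in every stroma library with none at 0, whereas Epb42, Rhag, Gata1 and Epor were among those not analysed in tumor. In stroma, Rn7s1, the RNA of the signal recognition particle, took 19.2 to 50.1% of the sums of WT libraries. It took 78.8, 71.5, 79.0 and 10.9% of those of IL-6 KO libraries 1 to 4. CT010467.1 took 61.5% of IL-6 KO stroma library 4 and at most 0.0387% of any other stroma library. The tables were normalized separately, so values of stroma and tumor are compared only as shares or ratios within a library.

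In stroma, globin mRNA was among the most abundant in every library and did not differ by genotype beyond the spread between libraries. Per kilobase of transcript, the 4 rows ranked between 6 and 27 of 13062 genes across all 8 libraries. The order of the mean levels per kilobase in WT stroma was Hbb-b1 (97441 ± 11523, SD, n = 4), Hba-a1 (81923 ± 14054), Hba-a2 (45330.0 ± 10259.9) and Hbb-bt (41699 ± 11858), and of neighbours in this order only Hba-a1 and Hba-a2 did not overlap over the libraries. The order was the same in IL-6 KO stroma, where all neighbours overlapped. With lengths counted from the RefSeq starts the order in WT stroma changed to Hba-a1 (106439 ± 18259.8, SD, n = 4), Hbb-b1 (97441 ± 11523), Hbb-bt (46531 ± 13232) and Hba-a2 (45577 ± 10316), in which Hbb-b1 and Hbb-bt alone did not overlap, and that in IL-6 KO stroma stayed. IL-6 KO libraries spread far more widely than WT libraries for all 4 genes, and none of the 4 was called (limma, adjusted p under 0.05), in a comparison that called 1 of 12202 genes (0.00820%). At an unadjusted p under 0.05, 0 of 4 were past the threshold, as against 9.15% of all genes.

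Hba-a1, which encodes the alpha chain, had normalized counts of 50171, 57066, 50600.5 and 71219.8 in WT stroma libraries 1 to 4 and of 20579, 41477, 81625 and 22179.6 in IL-6 KO stroma. Thus 3 of the 4 IL-6 KO libraries lay below every WT library and 1 lay above. The log2 difference of IL-6 KO minus WT, on the scale of log2(normalized count + 1), was -0.68 (standard error 0.46, 95% interval -1.68 to 0.31, limma adjusted p = 0.670). Hba-a2, its near-identical copy, had 18598, 25231, 24188 and 32434 in WT and 9848, 21299, 42492 and 10619 in IL-6 KO stroma, with libraries 1 and 4 of the IL-6 KO below all WT libraries and library 3 above. Its log2 difference was -0.49 (standard error 0.46, 95% interval -1.48 to 0.50, limma adjusted p = 0.766).

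Hbb-b1 had 65078, 66609.5, 62432 and 50651 normalized counts in WT and 28538, 108495, 183114 and 36253 in IL-6 KO stroma. IL-6 KO libraries 2 and 3 lay above all WT libraries and 1 and 4 below, so that the highest was 6.42 times the lowest, as against 1.32 times in WT. The log2 difference was 0.15 (standard error 0.56, 95% interval -1.06 to 1.36, limma adjusted p = 0.961), and its sign turned when IL-6 KO library 2 (-0.08) or 3 (-0.34) was left out or when libraries were scaled to the same sum without Rn7s1 and CT010467.1 (-0.13). Hbb-bt, the second adult beta gene, had 25337, 40328, 20969 and 30625 in WT and 8408, 28542, 33570.1 and 6798 in IL-6 KO stroma, with libraries 1 and 4 again below all WT libraries and none above. Its log2 difference was -0.90 (standard error 0.52, 95% interval -2.01 to 0.22, limma adjusted p = 0.610). Without IL-6 KO library 3, 3 of the 4 genes had an unadjusted p under 0.05 and none an adjusted one. In that refit 1636 of all 12151 genes had an unadjusted p under 0.05, as against 1117 of 12202 in the main fit.

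**Figure D1:**
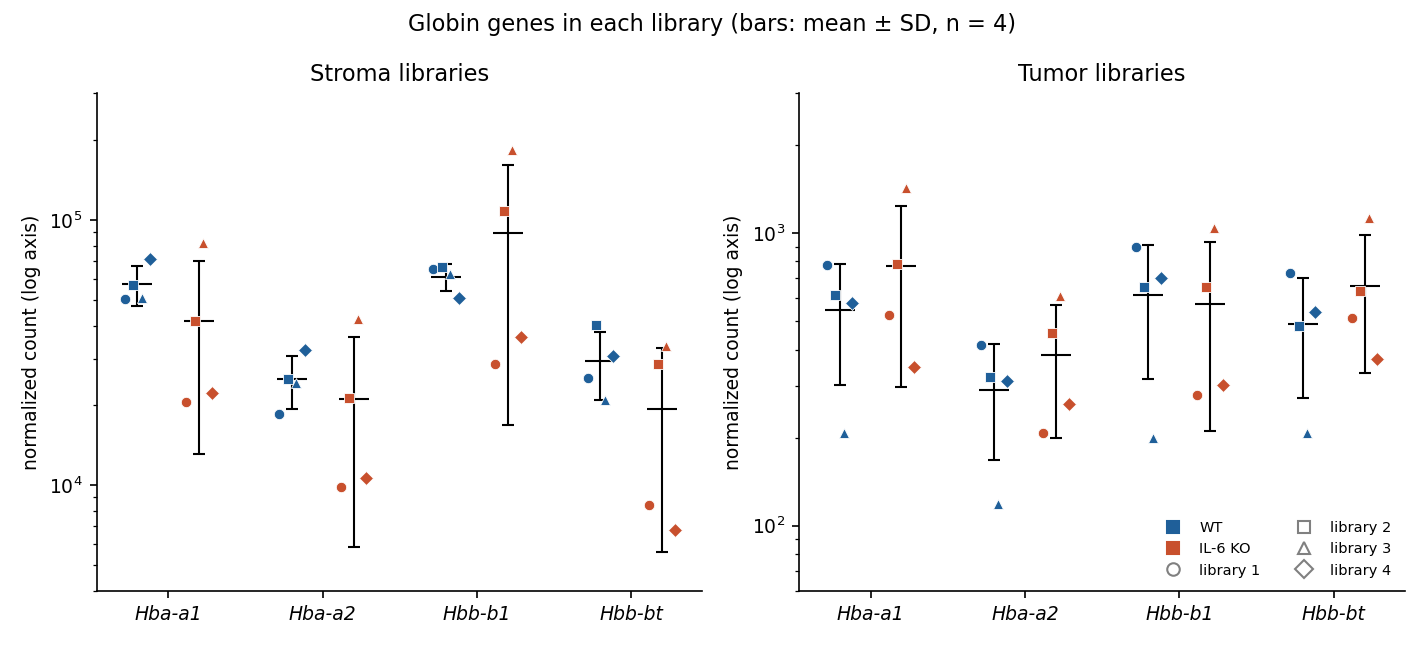
Normalized counts (log axis) of the 4 globin rows in each stroma library (left) and tumor library (right), by genotype, with the mean ± SD of 4 libraries as black bars and the library number as the shape of the point. In stroma the IL-6 KO libraries straddle the tight WT group, with library 3 highest and libraries 1 and 4 lowest for most rows, and in tumor both genotypes are spread.

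In tumor, globin mRNA was present in every library at a small share of the total and again did not differ by genotype beyond the spread. Per kilobase, the 4 rows ranked between 1067 and 6852 of 14790 genes. Their mean levels per kilobase in WT tumor were 977 ± 471 for Hbb-b1, 779.5 ± 345 for Hba-a1, 696 ± 307 for Hbb-bt and 527 ± 225 for Hba-a2 (SD, n = 4), and all neighbours in this order overlapped over the libraries. From the RefSeq starts Hba-a1 (1013 ± 448, SD, n = 4) came before Hbb-b1, again with overlap. None of the 4 was called, whereas 19.8% of 14493 genes were (10.6% higher and 9.16% lower), and no member was called either when libraries were scaled to the same sum without Rn7s1 and CT010467.1, which turned this split to 279 higher and 2990 lower. At the unadjusted level, 0 of 4 had a p under 0.05, as against 35.1% of all genes.

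Hba-a1 had 779, 616, 208 and 576 normalized counts in WT tumor libraries 1 to 4 and 524, 783, 1426 and 349 in IL-6 KO tumor, a log2 difference of 0.46 (standard error 0.48, 95% interval -0.61 to 1.52, limma adjusted p = 0.531). Hba-a2 had 415, 322, 119 and 312 in WT and 208, 456, 608 and 260.2 in IL-6 KO tumor, a log2 difference of 0.40 (standard error 0.42, 95% interval -0.55 to 1.34, limma adjusted p = 0.539). The genotypes overlapped for both alpha genes, with WT library 3 lowest and IL-6 KO library 3 highest of all 8. Without WT library 3 the differences were 0.05 and 0.01, the lowest of ranges that reached 0.77 for Hba-a1 and 0.65 for Hba-a2 as single libraries were left out.

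Hbb-b1 had 898, 656, 199 and 701 in WT and 280.1, 656, 1044 and 302 in IL-6 KO tumor, a log2 difference of -0.13 (standard error 0.52, 95% interval -1.30 to 1.04, limma adjusted p = 0.890), which took values from -0.60 to 0.14 as single libraries were left out. Hbb-bt had 729, 481, 207 and 539 in WT and 513, 634, 1126 and 370.1 in IL-6 KO tumor, a log2 difference of 0.45 (standard error 0.41, 95% interval -0.46 to 1.36, limma adjusted p = 0.469), with a range of 0.08 (without WT library 3) to 0.68 as single libraries were left out. The beta genes overlapped as well and had the same libraries at their extremes. Between the lowest and the highest library of a genotype, the tumor values of the 4 rows differed by 2.92 to 4.52 times.

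As a share of a library's summed normalized counts, the 4 rows made up 1.81, 1.96, 0.992 and 1.06% of WT stroma libraries 1 to 4 and 0.153, 0.472, 0.771 and 0.223% of IL-6 KO stroma, so the genotypes did not overlap. With Rn7s1 and CT010467.1 left out of the sums, the shares were 2.24, 2.54, 1.59 and 2.12% in WT and 0.720, 1.65, 3.68 and 0.810% in IL-6 KO stroma, and the genotypes overlapped. The sum over all genes was 8805689 to 17470735 in WT and 33973016 to 44191950.4 in IL-6 KO stroma, while the sums of the globin rows overlapped. In tumor, the share ranged from 0.00189 to 0.00633% in WT and from 0.00267 to 0.00858% in IL-6 KO libraries, and without the 2 RNAs from 0.00196 to 0.00661% and from 0.00283 to 0.00907%. Over all genes, the mean share in stroma was 314 times that in tumor in WT mice and 85.1 times in IL-6 KO mice, and without the 2 RNAs 441 and 340.2 times. The mean share in IL-6 KO stroma without the 2 RNAs was 1.72%, and 1.06% when library 3 was left out.

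**Figure D2:**
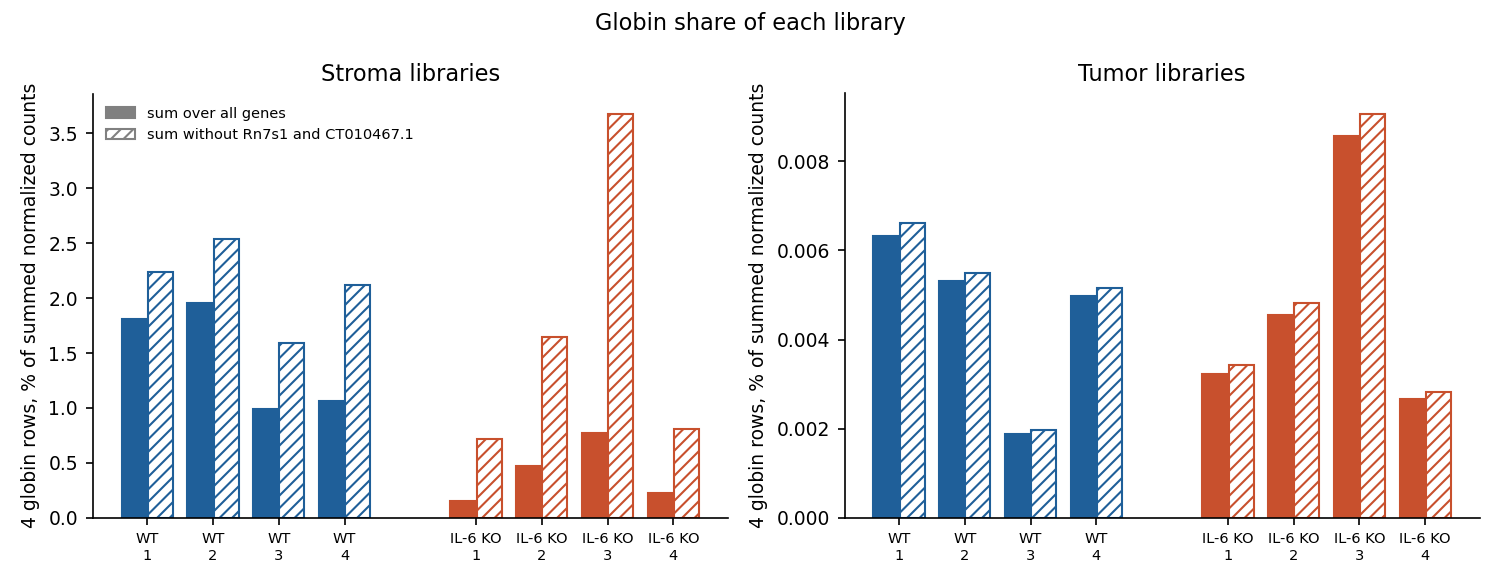
Share of the 4 globin rows in the summed normalized counts of each library, in percent, for stroma (left) and tumor (right, with its own scale), over all genes (filled) and without Rn7s1 and CT010467.1 (hatched). In stroma the filled bars of WT (0.992 to 1.96%) all exceed those of IL-6 KO (0.153 to 0.771%), while the hatched bars overlap.

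The balance of the copies was read from ratios within a library, which a single scaling factor per library cannot move. Whether the deposited values also carry factors that differ between genes was not tested. They are given as a description without a test. The sum of the alpha genes was 0.761, 0.770, 0.897 and 1.28 times that of the beta genes in WT stroma and 0.824, 0.458, 0.573 and 0.762 times in IL-6 KO stroma, with overlap. In tumor it was 0.734, 0.825, 0.805 and 0.716 in WT and 0.923, 0.960, 0.937 and 0.907 in IL-6 KO libraries, where the genotypes did not overlap.

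Within the alpha pair, the ratio of Hba-a1 to Hba-a2 in stroma was 2.31 ± 0.267 (SD, n = 4) for WT mice and 2.01 ± 0.0901 (SD, n = 4) for IL-6 KO mice. In tumor it was 1.85 ± 0.0693 (SD, n = 4) for WT hosts and 1.98 ± 0.548 (SD, n = 4) for IL-6 KO hosts. The stroma genotypes nearly met, at 2.09 in WT library 3 and in IL-6 KO libraries 1 and 4. The GENCODE transcript of Hba-a1 is longer (699 bases as against 554 in Hba-a2), and per kilobase of it the ratios in stroma were 1.83 ± 0.211 (SD, n = 4) for WT and 1.59 ± 0.0714 (SD, n = 4) for IL-6 KO mice. Counted from the RefSeq starts (538 and 551 bases) they were 2.37 ± 0.273 (SD, n = 4) and 2.06 ± 0.0923 (SD, n = 4).

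Within the beta pair, Hbb-b1 was 2.57, 1.65, 2.98 and 1.65 times Hbb-bt in WT stroma and 3.39, 3.80, 5.45 and 5.33 times in IL-6 KO stroma, so every IL-6 KO library was above every WT library. In stroma, Hbb-bt thus made up 32.1 ± 6.52% (SD, n = 4) of the pair for WT mice and 18.7 ± 3.64% (SD, n = 4) for IL-6 KO mice. In tumor the ratio was 1.23, 1.36, 0.961 and 1.30 in WT and 0.546, 1.03, 0.927 and 0.816 in IL-6 KO libraries, where the genotypes overlapped and IL-6 KO lay on the lower side. Every stroma library was above every tumor library in this ratio. The single base C417T and the ends of the transcripts are all that separates the beta copies, and the weight of read assignment in this ratio was not tested.

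**Figure D3:**
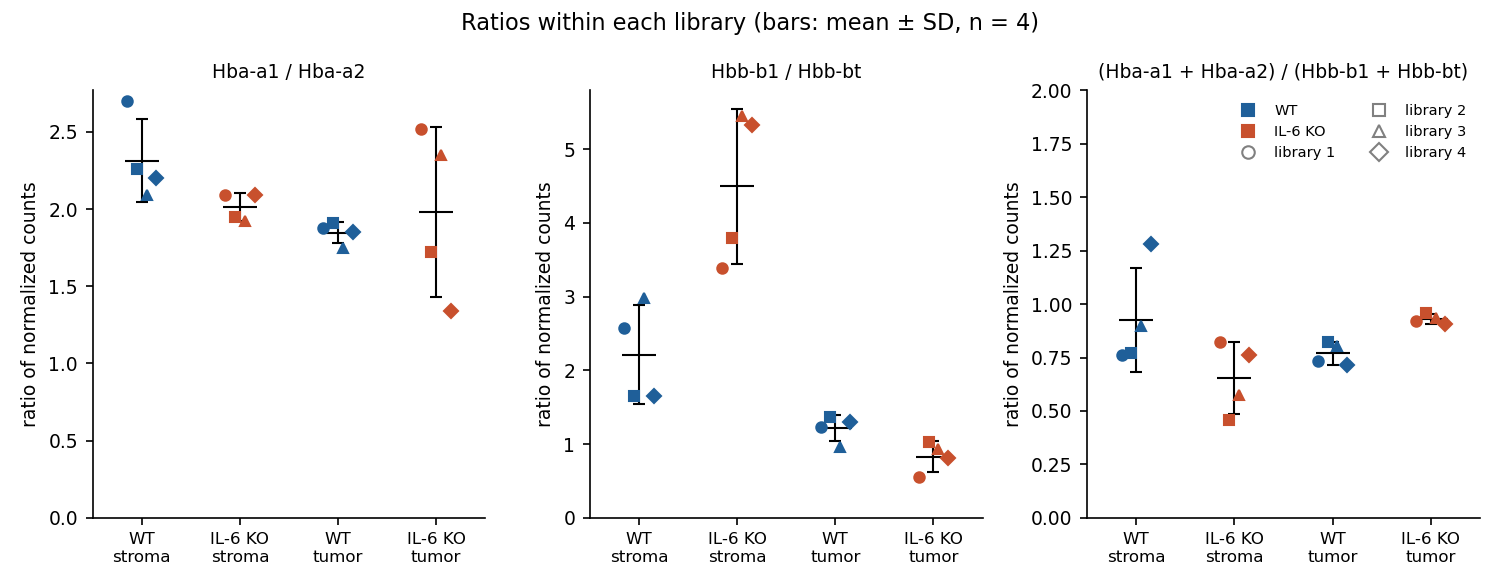
Ratios of normalized counts within each library for the alpha pair (left), the beta pair (middle) and all alpha to all beta (right), by group, with the mean ± SD of 4 libraries and the library number as the shape of the point. The Hbb-b1 to Hbb-bt ratio runs from 1.65 to 2.98 in WT stroma, from 3.39 to 5.45 in IL-6 KO stroma and from 0.546 to 1.36 in tumor.

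Markers of cell types were summed beside the globin rows of the same libraries. In IL-6 KO stroma libraries 1 to 4, the summed globin rows were 67373, 199812, 340801 and 75851 normalized counts, and the 13 erythroid markers summed to 29914, 69551, 109351 and 24176 in the same libraries. The 12 neutrophil markers (among them Ltf, Ngp, Camp and S100a8) summed to 34700.2, 33592, 8404 and 30276, and to between 7824 and 15087 in WT stroma. Ltf alone held 18709, 18524, 2711 and 12261 of the IL-6 KO sums. In the genotype fit 11 of the 12 were on the higher side and 1 on the lower side, with none called. S100a8 had a log2 difference of -0.02 (limma adjusted p = 0.993). Within IL-6 KO stroma the neutrophil sum was lowest in library 3, where globin was highest. Library 2, next in globin, lay near library 1 in neutrophil markers. None of these markers was at 0 in any stroma library. Among megakaryocyte markers, Itga2b was at 28.2, 72.6, 198 and 108 in WT and at 326, 306, 807 and 226 in IL-6 KO stroma, without overlap and highest where globin was highest (limma adjusted p = 0.324), while Pf4 and Gp9 were at 0 in some library and overlapped. The part of these cells in the globin values was not tested. The stroma globin sum per count of Alas2, the erythroid enzyme that starts heme synthesis, was 41.2 ± 4.81 (SD, n = 4) for WT and 56.1 ± 15.9 (SD, n = 4) for IL-6 KO mice. Per count of Slc4a1, the anion exchanger of the red cell membrane, it was 7.19 ± 1.29 (SD, n = 4) for WT and 6.64 ± 1.89 (SD, n = 4) for IL-6 KO mice, and the genotypes overlapped in both.

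In tumor libraries, IL-6 KO library 3 had the highest globin sum (4204) and the lowest neutrophil sum of its genotype (7609 as against 16309.9 to 18635). All 4 IL-6 KO tumor libraries exceeded the 4823 to 5399 of WT tumor in neutrophil markers. Of the 12, 10 were called higher, beside 10.6% of all 14493 genes. How these calls depend on the scaling was not tested. Alas2 was at 75.9, 32.2, 6.69 and 17.6 in WT and 18.2, 26.4, 42.7 and 10.7 in IL-6 KO tumor, and Slc4a1 at 161, 834, 47.5 and 365 in WT and 77.8, 223, 231 and 71.3 in IL-6 KO tumor. Both were lowest, within WT, in library 3, where the globin rows were lowest too. The tumor globin sum per count of Alas2 was 83.1 ± 39.1 (SD, n = 4) for WT and 99.4 ± 15.0 (SD, n = 4) for IL-6 KO hosts. The part of red cells or their RNA in the tumor sort was not tested.

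**Figure D4:**
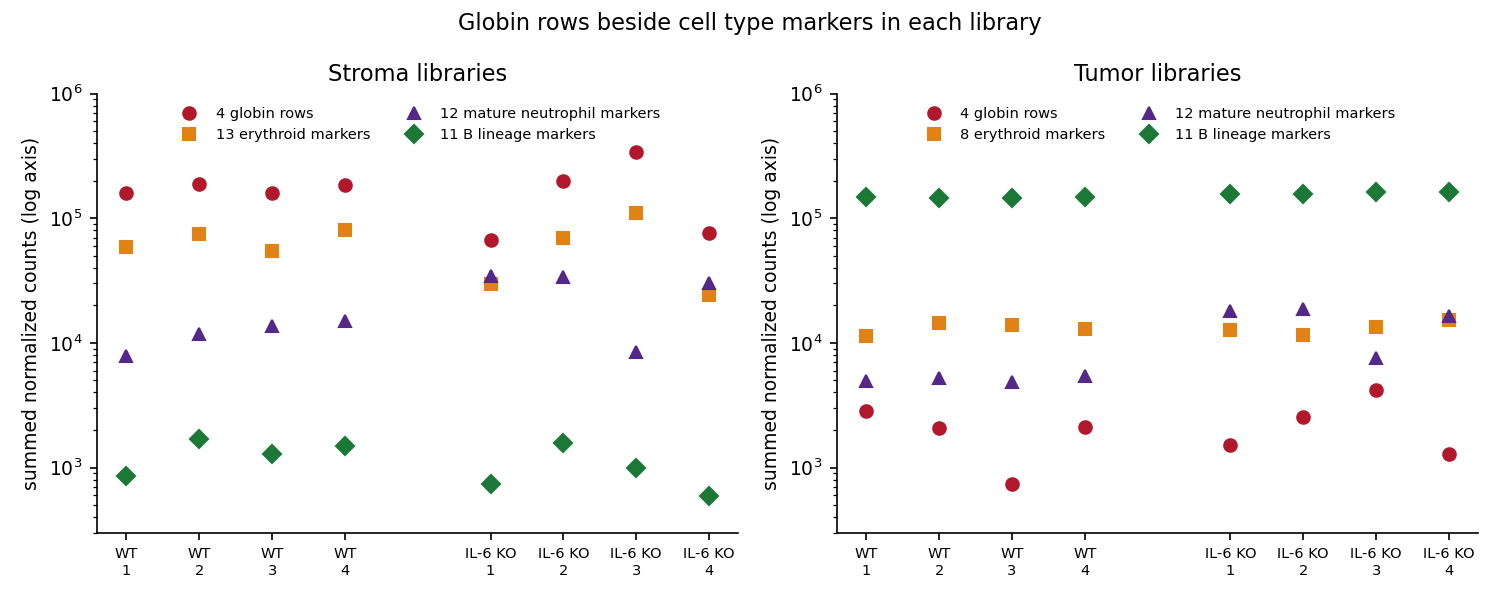
Summed normalized counts (log axis) of the 4 globin rows and of the erythroid, neutrophil (labelled mature neutrophil) and B lineage markers in each stroma library (left) and tumor library (right). In IL-6 KO stroma, library 3 has the highest globin sum (340801) and the lowest neutrophil sum (8404), and B lineage markers sum to at least 143925 in every tumor library. In tumor the erythroid sum covers 8 of the 13 markers, and Tfrc (6799 to 11533) and Car2 (3487 to 4798) hold most of it. Alas2 (6.69 to 75.9) and Klf1 (3.67 to 26.6) are low there.

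Of 11 other genes of the hemoglobin loci, the embryonic ones included, 2 were analysed in stroma and none in tumor. Hbq1b, a theta globin gene, had 97.5, 204, 173 and 172 normalized counts in WT and 21.8, 89.8, 145 and 85.0 in IL-6 KO stroma, a log2 difference of -1.14 (standard error 0.57, limma adjusted p = 0.570). Its companion Hbq1a was at 0 in 5 of the 8 stroma libraries and at 13.1, 33.3 and 80.1 in WT library 4 and IL-6 KO libraries 2 and 3 (limma adjusted p = 0.779).

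The rest of the red cell program was followed in 5 lists of 84 genes. In stroma, 73 of the 84 were on the lower side in IL-6 KO mice and 11 on the higher side, with none called, and the number lower was 68 to 79 over all settings tried. At an unadjusted p under 0.05, 22 were lower and none higher, as against 5.20% of all genes lower and 3.95% higher. The number lower at an unadjusted p was 48 without IL-6 KO library 3, 28 without library 2, 10 without library 1 and 15 without library 4, and 10 without WT library 2 and 11 without WT library 4. It was 41 with libraries scaled to the same sum without Rn7s1 and CT010467.1 and 35 with array weights. Over all genes the number at an unadjusted p, in either direction, moved as well, from 1117 in the main fit. It was 1636 without IL-6 KO library 3, 1029 without library 2, 871 without library 1 and 1288 without library 4. Without WT library 2 it was 730 and without WT library 4 it was 877. The sum scaling gave 1340 and array weights 1639.

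Among 16 genes of heme synthesis, the median log2 difference in stroma was -0.66, beside -0.01 over all genes. Fech, which inserts iron into heme, had 3993, 4157, 2766 and 3955 in WT and 1377, 2447, 2704 and 1859 in IL-6 KO stroma, with no overlap (log2 difference -0.86, standard error 0.30, limma adjusted p = 0.440). Fam210b, a mitochondrial protein that aids heme synthesis, did not overlap either (-1.22, limma adjusted p = 0.392), and Slc25a37, the mitochondrial iron importer mitoferrin, did (-0.93, limma adjusted p = 0.463). Alas1, the heme-forming enzyme of other cells, had the opposite sign (1.12, limma adjusted p = 0.558).

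Among 16 regulators of globin genes, 14 were lower and the median was -0.50. Zfpm1 (FOG1), the partner of GATA1, had 3849, 2667, 1815 and 1941 in WT and 735, 990.1, 1048 and 1152 in IL-6 KO stroma, with no overlap (-1.34, limma adjusted p = 0.302). Klf3 (-1.37, limma adjusted p = 0.324) and Sox6 (-1.24, limma adjusted p = 0.412), a silencer of embryonic globin, did not overlap, and Tal1 did (-1.13, limma adjusted p = 0.507). Klf1, the activator that binds CACCC, was at 899.9 ± 188 (SD, n = 4) for WT and 788 ± 373 (SD, n = 4) for IL-6 KO mice (-0.29, limma adjusted p = 0.843).

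Among 20 genes of the red cell membrane, 19 were lower and the median was -0.92. Epb41 (protein 4.1) had 5246, 7713, 6966 and 9615 in WT and 2442, 3391, 3179 and 2018 in IL-6 KO stroma, the smallest adjusted p of these lists (-1.42, standard error 0.30, limma adjusted p = 0.298). Gypc (-1.28) and Tspan33 (-1.04) overlapped between genotypes, with a limma adjusted p of 0.440 each. Slc4a1 itself differed by -0.19 (limma adjusted p = 0.933).

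Of 20 genes of hemoglobin protection and terminal maturation, 18 were lower, with a median of -0.75. Eif2ak1, the kinase that matches globin translation to heme, overlapped between genotypes (-0.99, limma adjusted p = 0.461), as did Car2 (-0.83, limma adjusted p = 0.535) and Ube2o (-0.83, limma adjusted p = 0.545), a ubiquitin ligase of reticulocytes. Gpx1, a peroxidase that protects hemoglobin, did not (-0.92, limma adjusted p = 0.502). Of 12 genes of iron uptake and the erythropoietin response, 9 were lower, with a median of -0.54, and Fth1, the ferritin heavy chain, did not overlap (-1.04, limma adjusted p = 0.412). Ftl1 (-0.68), Slc11a2 (-0.97) and Tfr2 (-1.26) did, with limma adjusted p-values of 0.541, 0.556 and 0.606. For the scavenging of hemoglobin, Hp, the hemoglobin-binding haptoglobin also made by neutrophils, was at 325, 434, 411 and 557 in WT and 839.8, 784, 227 and 1407 in IL-6 KO stroma (0.68, limma adjusted p = 0.689).

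In tumor, 73 genes of the same 5 lists were tested, of which 42 were on the higher side in IL-6 KO hosts and 31 on the lower side. Of these, 6 were called higher and 7 lower, beside 10.6% of all genes higher and 9.16% lower. With single libraries left out the calls were 3 to 6 higher (3 without IL-6 KO library 4) and 3 to 8 lower (3 without WT library 3 or IL-6 KO library 1, 4 without WT library 2 or 4). When libraries were scaled to the same sum without Rn7s1 and CT010467.1, which moved the median of all genes to about -0.25, the split was 18 higher and 55 lower, with 0 called higher and 10 lower.

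Heme synthesis had no called gene in tumor, and Cpox came closest (0.24, limma adjusted p = 0.0641). Of the globin regulators, Bcl11a, the silencer of fetal globin that also acts in B cells, fell from 12058, 12170.4, 14041 and 14413 in WT to 9021, 10721, 9382 and 9005 in IL-6 KO tumor (-0.47, standard error 0.08, limma adjusted p = 0.00680). Myb fell (-0.23, limma adjusted p = 0.0250), and Lyl1 (0.48, limma adjusted p = 0.00701) and Nfe2 (1.40, limma adjusted p = 0.0465) rose on the deposited scale. Nfe2 is also a gene of myeloid cells and was at only 15.1 to 62.5 in WT and 47.1 to 122 in IL-6 KO tumor. Bcl11a was called under all 17 alternatives and Lyl1 under all but the sum scaling (limma adjusted p = 0.0764), whereas Myb lost its call without WT libraries 2, 3 or 4 or IL-6 KO libraries 1 or 4, and Nfe2 under 8 alternatives, among them WT libraries 1, 2 or 4 or IL-6 KO libraries 1, 2 or 4 left out. Klf1 was low in tumor, at 11.5 ± 10.7 (SD, n = 4) for WT and 17.2 ± 4.98 (SD, n = 4) for IL-6 KO hosts.

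Of the protection genes, Glrx5, a mitochondrial iron-sulfur protein, rose from 2265, 1825, 2067 and 2137 to 3087, 2887, 3394 and 2859.8 (0.56, standard error 0.09, limma adjusted p = 0.00386). Ube2o (0.42, limma adjusted p = 0.00880) and Gpx1 (0.40, limma adjusted p = 0.0176) rose and Prdx2, a peroxiredoxin abundant in red cells, fell (-0.47, limma adjusted p = 0.00612). Fth1 fell (-0.37, limma adjusted p = 0.00418) and Steap3, a ferric reductase, rose (0.34, limma adjusted p = 0.0257). Add2, a beta adducin of the membrane skeleton, fell from 18.1 to 23.3 in WT to 2.07 to 11.6 in IL-6 KO tumor (-1.87, limma adjusted p = 0.0248), a call that was lost with any single WT library or IL-6 KO library 1 left out, with quantile normalization and with a block for the replicate number (limma adjusted p up to 0.0572). Fth1, Prdx2 and Hp were called under all 17 alternatives, and Glrx5 (limma adjusted p = 0.0506) and Ube2o (0.180) under all but the sum scaling. Gpx1 lost its call under that scaling and without WT library 3 or IL-6 KO library 4, and Steap3 under 7 alternatives, among them WT libraries 2 or 3 or IL-6 KO libraries 1, 3 or 4 left out. Hp rose from 122, 203, 113 and 146 to 829.9, 918, 263 and 637 (2.06, standard error 0.36, limma adjusted p = 0.00585), with IL-6 KO library 3 again the lowest of its genotype, as in the neutrophil markers.

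**Figure D5:**
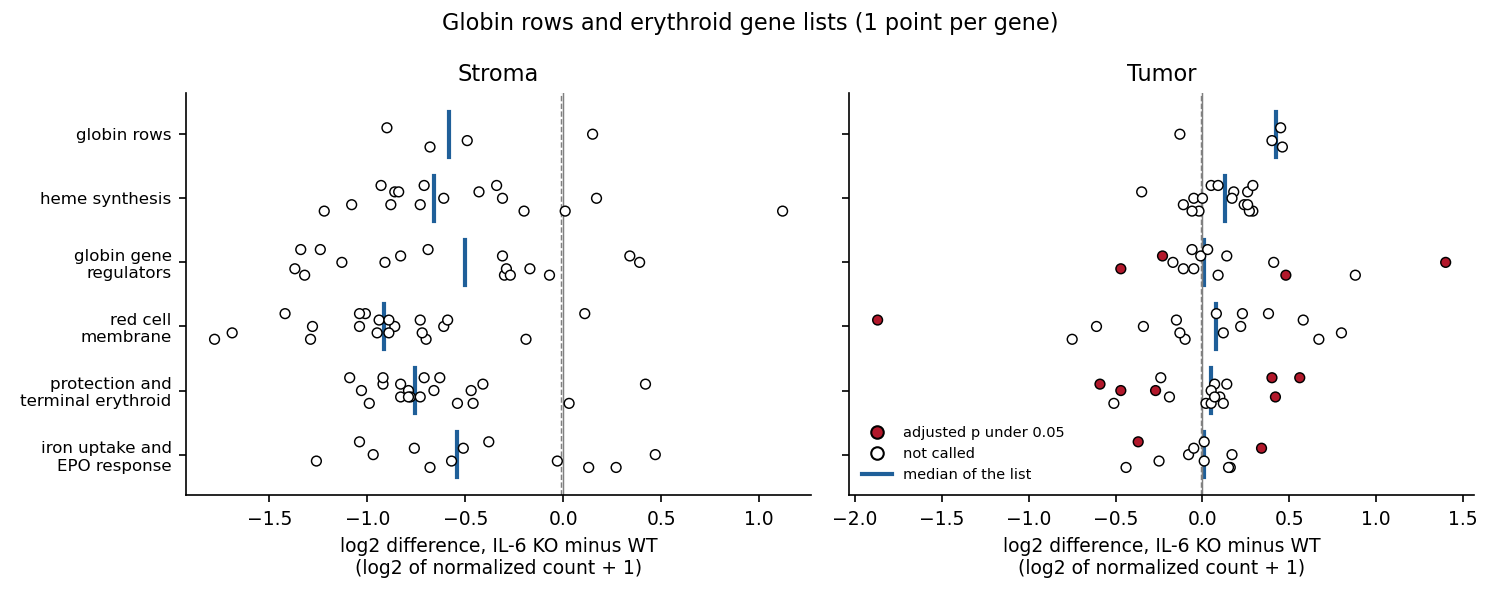
Log2 difference of IL-6 KO minus WT for the 4 globin rows and each tested gene of 5 erythroid lists, in stroma (left) and tumor (right), 1 point per gene, red where the limma adjusted p was under 0.05, with the median of each list as a blue bar and that of all genes as a dashed line. In stroma no point is red and 73 of 84 list genes lie below 0, and in tumor 6 red points lie above and 7 below.

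The genes most like the globin row with the highest mean normalized count, not divided by length, were found by the root mean square difference of centred log2 profiles over the 8 libraries of a table. In stroma this row was Hbb-b1, and the 5 nearest genes included Pcgf1 (0.14), Plaat3 (0.30) and Glrx5 (0.30), as against a median of 1.16 over 12201 genes. The other globin rows were less close, Hba-a2 at 0.49 (rank 97), Hba-a1 at 0.55 (rank 216) and Hbb-bt at 0.62 (rank 467). In tumor it was Hba-a1, and the other 3 globin rows were its nearest, Hbb-bt at 0.16, Hba-a2 at 0.26 and Hbb-b1 at 0.36, as against a median of 0.81 over 14492 genes. They were followed by Tmcc2 (0.36), Sptb (0.36), the spectrin of the red cell membrane, Snora21 (0.40), Gm5913 (0.43) and Try5 (0.43). Snora21, Gm5913 and Try5 were low, at mean normalized counts of 27.0, 11.2 and 9.01 in WT tumor.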

How the data were processed

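RNA of sorted marrow cells was made into rRNA-depleted directional libraries. The authors quantified reads with Salmon 1.3.0 against mm10 (GC and sequence bias corrected) and scaled the estimates with DESeq2 1.28.1. The deposited normalized counts are a scaled signal, not whole reads. Values that recur exactly pointed to a step per read of 0.399 to 0.895 in WT stroma and 1.14 to 3.41 in IL-6 KO stroma. In tumor the step was 0.604 to 1.58. At most 5.11% of values were whole multiples within 0.01, so reads were not recovered and no interval that needs them is given. The authors' own test results (means, log2 fold changes, Wald statistics and p-values) were not used.

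The genotypes were compared within each table by limma 3.58.1 in R 4.3.3 (moderated variance with a trend) on log2(normalized count + 1), for genes with a mean over 10, two-sided, with Benjamini-Hochberg adjustment over all genes tested and a threshold of 0.05. The fit was tested on simulated data. Lengths are those of the longest GENCODE vM21 transcript, and 13062 of 13344 stroma and 14790 of 15080 tumor identifiers had one. Promoters and their build are from RefSeq. Python 3.11.15 and pandas 2.3.3 were used.

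The members and gene lists were chosen with earlier results of these data known. Named are the globin rows, other hemoglobin-locus genes, up to 4 genes per erythroid list and compartment with the smallest p, the 5 genes nearest in profile, and Rn7s1 and CT010467.1. Some genes that this rule picks are not reported here. Alas2, Slc4a1 and Klf1 were named after their values were seen. Alternatives were other pseudocounts, filters and scalings, array weights, each library left out, and a block for the replicate number. Counts and calls of the erythroid lists under these settings, and lengths counted from the RefSeq starts, were added after the data were seen.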

Additional observations from a re-analysis of the deposited data

How the results depend on the processing

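The count of 0 called globin rows held in both tables under every alternative, and of 136 refitted log2 differences of single rows 7 changed sign, all of Hbb-b1. In stroma these were -0.13 with libraries scaled to the same sum without Rn7s1 and CT010467.1, and a range of -0.34 to 0.56 with single libraries left out (IL-6 KO libraries 2 and 3 turned it). In tumor the range was -0.60 to 0.14, positive without WT library 1 (0.12) or 4 (0.003) and without IL-6 KO library 1 (0.14) or 4 (0.11). That sum scaling moved the median of all genes from -0.01 to -0.28 in stroma and from -0.01 to -0.25 in tumor. It turned the tumor calls from 1542 higher and 1328 lower to 279 and 2990. Genes called in stroma were 1 in the main fit, 2 with sum scaling, 4 with array weights and 1 to 3 with single libraries left out. In tumor they were 2870, and 1569 to 3327 with single libraries left out, lowest without IL-6 KO libraries 4 (1569) and 1 (1617) and WT libraries 3 (1722) and 2 (1791). With the replicate number as a block, 1 gene was called in stroma and 2230 in tumor, no globin row among them. Neither this balanced block nor the filters can move a log2 difference, so Hbb-b1 stayed at 0.15 and -0.13. Those refits could not change a sign. Within a table, same-numbered WT and IL-6 KO libraries did not deviate together (correlations of -0.03 to 0.13 in stroma and at most 0 in tumor). The numbers were therefore not taken as pairs of genotypes. Whether same-numbered stroma and tumor libraries share a mouse was not tested. In IL-6 KO mice, library 3 had the highest globin sum and the lowest neutrophil sum in both compartments. In WT mice the highest globin sum was in stroma library 2 and tumor library 1. The mean share of the globin rows without the 2 RNAs was 2.12% in WT and 1.72% in IL-6 KO stroma, as against 1.45 and 0.405%. Per kilobase, the ratio of Hba-a1 to Hba-a2 was 1.83 in WT stroma, 1.59 in IL-6 KO stroma and 1.46 in WT tumor, and alpha to beta in IL-6 KO tumor 0.969. Counted from the RefSeq starts, alpha to beta was 0.893 in WT tumor and 1.08 in IL-6 KO tumor, as against 0.770 and 0.932, and no other ratio moved by more than its SD. The cause of these shifts was not tested, other than the removal of the 2 RNAs and the transcript lengths themselves. The planned ratio of Ahsp to alpha globin could not be given, since Ahsp was not analysed here.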
